A study of Mus musculus with 9 samples.

Results

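Transcription factor genes of pancreatic ducts and endocrine progenitors were followed in polyadenylated RNA from mouse pancreatic islets. The 8 genes, Sox9, Hes1, Onecut1, Onecut2, Prox1, Glis3, Neurog3 and Sox4, were taken by symbol from a count table of 23329 genes, and all 8 had a row. The table held 5 libraries titled as mutants, whose genotype label is Pdx1A4, and 4 titled as controls, whose genotype label is Pdx1+/-. The labels do not explain Pdx1A4, and they give all 9 libraries as islets of male mice with no age. The controls therefore carry a change at the Pdx1 locus themselves, and no Pdx1+/+ library was analysed here. Nothing in the labels says whether the libraries of a group are separate animals, so p-values cover library-to-library spread alone, and that may be technical.

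Ducts and hormone cells of the pancreas arise from a shared epithelium. In it Sox9 and the Notch target Hes1 are known for maintaining progenitor and duct fate, and Onecut1 (also called Hnf6) acts upstream of Neurog3. Neurog3 is the basic helix-loop-helix factor that commits a cell to the endocrine lineage, and Hes1 is known to repress it. Sox4 acts beside and after Neurog3, while Prox1 and Glis3 continue to be used in endocrine cells.

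Mutant libraries held 7186462 to 9163253 counts and control libraries 6092010 to 7375376. Hormone genes, which define islets, were detected in every library, but took 0.0691% (mutant 2) to 7.99% of counts in mutants and 16.9% to 21.0% in controls. Acinar markers (24 of 24 found) summed to between 10.3% and 27.7% of scaled counts in mutants and between 1.69% and 2.90% in controls. Ductal markers (23 of 23 found) summed to between 1.93% and 3.22% in mutants and between 0.594% and 1.46% in controls. In mutants the keratin genes Krt18 and Krt8 held by far the most counts of these markers, 307438 and 272480 in all mutants together. Of 22 ductal markers tested below, 11 rose, 2 fell and 9 did not pass. The sums therefore do not show a rise of ductal markers as a whole. No acinar, ductal or beta cell marker was at 0 in all libraries. In bulk RNA, fewer cells of a type and less RNA per cell cannot be told apart, and the part of this shift in the results below was not tested. Mutants 2 and 3 stood apart with the lowest hormone shares, so calls are also given without them.

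The 8 genes did not move together. Hes1 rose in mutants, Prox1 and Glis3 fell, and Sox9, Onecut2, Neurog3 and Sox4 did not pass (edgeR quasi-likelihood test on counts, Benjamini-Hochberg adjusted p under 0.05 over 12402 tested genes). Of the 8 genes 7 passed the filter on low counts. Of those 7, 1 was called higher, where 20.6% of all tested genes were, and 2 lower, where 11.8% were. With both directions together 3 of the 7 were called, against 32.4% of all tested genes, so these counts were near the background. Onecut1 did not pass the filter, but every mutant library was above every control. Groups were also fully apart for Hes1 (higher in mutants) and for Prox1, Glis3 and Neurog3 (lower in mutants). Among tested genes 18.5% lay fully above and 14.7% fully below the controls.

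**Figure D1:**
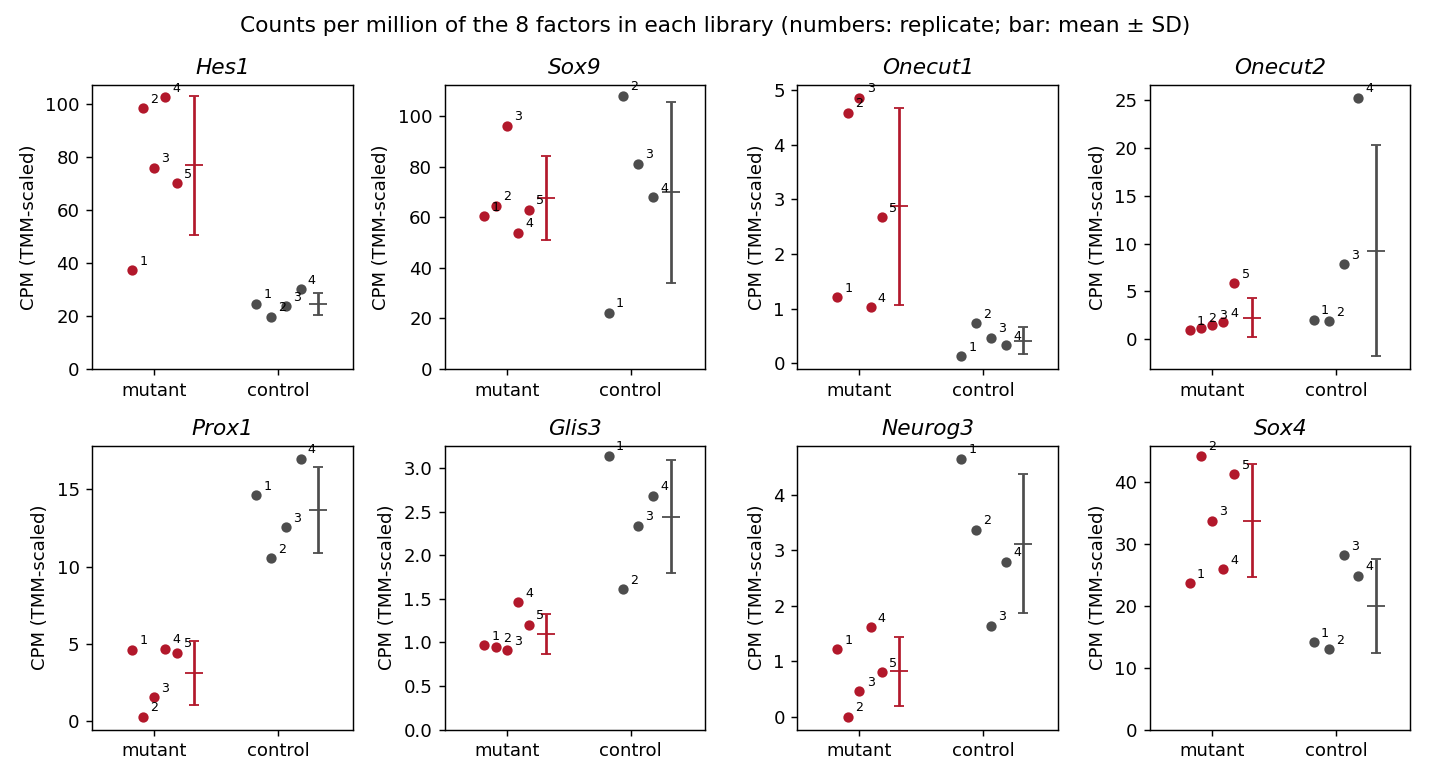
CPM (counts scaled to the TMM-adjusted library size) of each gene by library, mutants left and controls right, with replicate numbers and the mean ± SD beside the points. Hes1 and Onecut1 lie above all controls in every mutant library, Prox1, Glis3 and Neurog3 below all controls, and the groups overlap for Sox9, Onecut2 and Sox4.

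Levels per kilobase of annotated exon (union of GENCODE exons, as the sources used here do not give the annotation behind the counts) ranged widely. In mutants the order was Hes1 (37.7 CPM per kilobase), Sox9 (16.3), Sox4 (7.03), Onecut1 (0.698), Neurog3 (0.487), Prox1 (0.369), Onecut2 (0.140) and Glis3 (0.124). In controls the order was Sox9 (16.9 CPM per kilobase), Hes1 (12.01), Sox4 (4.17), Neurog3 (1.86), Prox1 (1.63), Onecut2 (0.571), Glis3 (0.277) and Onecut1 (0.102). Library ranges did not overlap between Sox9 and Sox4 or between Sox4 and Onecut1 in mutants, nor between Hes1 and Sox4 or between Glis3 and Onecut1 in controls. All other neighbours in these orders overlapped. Sox9, Hes1 and Sox4 were thus the abundant genes of the group in both genotypes, and Onecut1 was the fourth in mutants and the last in controls.

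Hes1 (chromosome 16, 30065357 to 30067796, plus strand, GRCm38), a basic helix-loop-helix repressor and the classical Notch target, rose. It had 37.2, 98.3, 75.9, 102 and 70.1 CPM in mutants 1 to 5, against 24.61, 19.61, 23.66 and 29.95 CPM in controls 1 to 4. All mutants lay above all controls, and mutant 1 was the lowest of them. The means were 76.8 ± 26.1 CPM in mutants (SD, n = 5) and 24.5 ± 4.26 CPM in controls (SD, n = 4), or 1.65 ± 0.28 as a log2 ratio of mutant to control (SE; edgeR adjusted p = 0.00398). The call held with each library left out (log2 fold change 1.46 to 1.82, highest edgeR adjusted p = 0.0178) and without mutants 2 and 3 (1.44, edgeR adjusted p = 0.0144). It did not pass with a marker mean as a covariate. The log2 difference was then 1.25 ± 0.46 with the ductal mean, 1.30 ± 0.34 with the mean of 16 endocrine granule genes and 0.08 ± 0.95 with the acinar mean (SE; edgeR adjusted p = 0.255, 0.0582 and 0.997). Over all genes the ductal fit called 1 higher and 8 lower, the acinar fit 0 and 0, and the granule fit 573 and 79. A call lost in the ductal or acinar fit therefore says little about a single gene, here and in the paragraphs below.

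Sox9 (chromosome 11, 112782210 to 112787757, plus strand), an HMG box factor that marks ducts in the adult pancreas, did not pass. It had 60.3, 64.6, 96.2, 53.8 and 62.9 CPM in mutants 1 to 5, against 22.3, 108, 81.2 and 67.8 CPM in controls 1 to 4. The mutants lay inside the range of the controls, which control 1 widened downwards. The means were 67.5 ± 16.5 CPM in mutants (SD, n = 5) and 69.8 ± 35.8 CPM in controls (SD, n = 4). The log2 difference came to -0.05, and its 95% interval ran from -0.87 to 0.78 (edgeR adjusted p = 0.930), which does not show equal levels. Without control 1 it was -0.35 (edgeR adjusted p = 0.289). Ductal markers around it were divided: of 22 tested, 11 rose and 2 fell, with a median log2 fold change of 0.94 against 0.04 over all tested genes. The trefoil factor gene Tff2, the keratin Krt19, the claudin gene Cldn3 and Krt18 rose by 2.90, 2.13, 2.13 and 2.03 on the log2 scale (edgeR adjusted p = 0.00178, 0.00242, 0.00248 and 0.00297), and Krt18 is also known from acinar cells. Chosen after their values were seen, the duct gene Spp1 stood at -0.46 on that scale and missed the threshold (edgeR adjusted p = 0.606), and the duct keratin Krt7 fell by 1.34 (edgeR adjusted p = 0.0409).

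Onecut1 and Onecut2, the paired cut domain and homeodomain factors that act redundantly in the pancreatic epithelium, had opposite signs. Onecut1 (chromosome 9, 74861921 to 74889648, plus strand) had 10, 34, 32, 7 and 20 counts in mutants 1 to 5, against 1, 5, 4 and 3 counts in controls 1 to 4. Every mutant library was higher than every control in CPM as well, at 2.87 ± 1.81 CPM in mutants (SD, n = 5) and 0.418 ± 0.250 CPM in controls (SD, n = 4). With no filter on low counts the log2 difference came to 2.69 ± 0.66 (SE; edgeR adjusted p = 0.0173), in a fit where 12% of 17564 genes were called higher. DESeq2 gave 2.70 (adjusted p = 0.00127), where it called 16.5% of genes higher. With so few control counts the size is uncertain. The noncoding gene Gm20649 overlaps the span of Onecut1 on the same strand. Whether the pair shares exons was not checked, and some reads of Gm20649 may be counted with Onecut1.

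Onecut2 (chromosome 18, 64340032 to 64398488, plus strand) had 0.969, 1.21, 1.52, 1.76 and 5.89 CPM in mutants 1 to 5, against 2.05, 1.90, 7.85 and 25.3 CPM in controls 1 to 4. Controls 1 and 2 were close to the mutants, control 4 was far above every other library, and the groups overlapped through mutant 5. The means were 2.27 ± 2.04 CPM in mutants (SD, n = 5) and 9.27 ± 11.02 CPM in controls (SD, n = 4). The log2 difference came to -2.03 ± 0.83 (SE; edgeR adjusted p = 0.0811). Without control 4 it was -0.80 (edgeR adjusted p = 0.411), and without mutant 5 it was -2.76 and passed (edgeR adjusted p = 0.0403). DESeq2 called it lower (adjusted p = 0.0273), where 16.7% of genes were. Its sister gene Onecut3 had 2 counts in all mutants together and 5 in all controls. The other near relatives were as scarce: Prox2 had 10 counts in all mutants and 20 in all controls, and Neurog1 and Neurog2 had 0 in every library.

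Prox1 (chromosome 1, 190118035 to 190170827, minus strand), a homeobox factor of the early pancreas that persists in endocrine cells, fell. It had 4.60, 0.270, 1.52, 4.68 and 4.42 CPM in mutants 1 to 5, against 14.6, 10.5, 12.5 and 17.0 CPM in controls 1 to 4. All mutants were below all controls, mutant 2 far below, and mutants 1, 4 and 5 lay within 4.42 to 4.68 CPM. The means were 3.10 ± 2.06 CPM in mutants (SD, n = 5) and 13.7 ± 2.77 CPM in controls (SD, n = 4), or -2.13 ± 0.56 as a log2 ratio of mutant to control (SE; edgeR adjusted p = 0.0183). The call held with each library left out (-2.38 to -1.90, highest edgeR adjusted p = 0.0492), and without mutants 2 and 3 the log2 fold change was -1.64 (edgeR adjusted p = 0.00565). Granule genes were low in the same libraries (4 of 16 fell, and 15 fell without mutants 2 and 3). The level of Prox1 relative to their mean was -4.59 ± 0.55 in mutants (log2, SD, n = 5) and -4.62 ± 0.35 in controls (log2, SD, n = 4). With a marker mean as a covariate Prox1 did not pass, at -0.53 ± 0.37 with the granule mean, -2.08 ± 0.79 with the ductal mean and -0.17 ± 1.96 with the acinar mean (log2, SE; edgeR adjusted p = 0.422, 0.268 and 0.997). The antisense genes Prox1os and Gm28172 overlap Prox1, and their reads may be counted with it.

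Neurog3 (chromosome 10, 62133090 to 62134763, plus strand) had 10, 0, 3, 11 and 6 counts in mutants 1 to 5, against 34, 23, 14 and 25 counts in controls 1 to 4. In CPM all mutants were below all controls, with mutant 4 at 1.61 and control 3 at 1.64 almost level. The 0 of mutant 2 allows up to 0.404 CPM (3 counts, counting error only). The means were 0.816 ± 0.629 CPM in mutants (SD, n = 5) and 3.11 ± 1.25 CPM in controls (SD, n = 4). The log2 difference came to -1.90 ± 0.66 (SE), which just missed the threshold (edgeR adjusted p = 0.0507). It passed with relative log expression (RLE) scaling (-2.01, edgeR adjusted p = 0.0418), without mutant 1, 2 or 4 (lowest edgeR adjusted p = 0.0292) and in DESeq2 (adjusted p = 0.0104), and did not pass without mutants 2 and 3 (-1.41, edgeR adjusted p = 0.0621). With the granule mean as a covariate it was 0.11 ± 0.38, with the ductal mean -1.04 ± 0.93 and with the acinar mean -0.99 ± 2.595 (SE; edgeR adjusted p = 0.902, 0.583 and 0.989). Neurog3 overlaps the antisense gene Fam241b, whose counts were 144 to 227 in mutants and 135 to 208 in controls, so a few misassigned reads would matter at these levels.

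Promoters were available in the RefSeq table (GRCm38.p6) for 5 of the 8 genes, and 3 are shown as the 250 bases before the annotated start, 5′ to 3′ on the gene's strand: the pair that was low in the same mutant libraries, Neurog3 and Prox1, and Onecut1, which was high in them. Capitals mark matches on either strand to the Hes N-box (letters CACNAG), the E-box of basic helix-loop-helix factors (letters CANNTG), the RBPJ core (letters TGGGAA), the TATA box (letters TATAAA), a Onecut core (letters ATTGAT) or a SOX core (letters ACAAAG).
Neurog3, chr10:62132840-62133089, plus strand: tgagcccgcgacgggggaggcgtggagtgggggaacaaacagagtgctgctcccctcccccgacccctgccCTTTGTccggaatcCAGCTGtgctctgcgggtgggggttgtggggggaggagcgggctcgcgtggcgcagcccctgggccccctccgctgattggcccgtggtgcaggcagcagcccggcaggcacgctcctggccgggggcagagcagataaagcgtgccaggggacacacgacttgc
Prox1, chr1:190170828-190171077, minus strand: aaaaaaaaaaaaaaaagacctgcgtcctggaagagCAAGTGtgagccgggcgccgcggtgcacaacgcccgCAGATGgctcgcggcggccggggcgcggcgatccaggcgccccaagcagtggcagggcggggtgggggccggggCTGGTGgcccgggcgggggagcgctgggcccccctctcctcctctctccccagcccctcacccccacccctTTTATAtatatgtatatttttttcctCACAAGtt
Onecut1, chr9:74861671-74861920, plus strand: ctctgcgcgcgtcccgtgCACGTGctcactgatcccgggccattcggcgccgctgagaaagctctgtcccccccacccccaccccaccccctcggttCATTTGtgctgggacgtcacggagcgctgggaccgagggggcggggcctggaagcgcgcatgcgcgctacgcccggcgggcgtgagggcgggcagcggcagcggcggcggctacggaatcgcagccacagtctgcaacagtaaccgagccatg

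The Neurog3 window held 1 E-box match (CAGCTG) and 1 SOX core match (CTTTGT, read on the other strand), and none to the N-box. The printed Prox1 window held 2 N-box matches (CTGGTG on the other strand and CACAAG), 2 E-box matches and 1 TATA box match on the other strand. A second Prox1 start in the table, with the window chr1:190169516-190169765, had 1 RBPJ core and 1 SOX core match and none to the N-box. The Onecut1 window held 2 E-box matches. Over 32851 promoter windows of the same length 36.7% held an N-box match, 66.2% an E-box match, 21.6% an RBPJ core, 12.4% a TATA box, 6.72% a Onecut core and 16.5% a SOX core. G and C made up 71.2% of the Neurog3 window, 64.8% of that of Prox1 and 71.6% of that of Onecut1, against a median of 52.4% over all windows.

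Glis3 (chromosome 19, 28258851 to 28680265, minus strand), a Krüppel-like zinc finger factor of ducts and beta cells that is known for activating insulin and Neurog3, fell at low counts. It had 8, 7, 6, 10 and 9 counts in mutants 1 to 5, against 23, 11, 20 and 24 counts in controls 1 to 4. Every mutant library was below every control in CPM, at 1.10 ± 0.235 CPM in mutants (SD, n = 5) and 2.44 ± 0.646 CPM in controls (SD, n = 4). The log2 difference came to -1.15 ± 0.32 (SE; edgeR adjusted p = 0.0243). The call was lost without control 1, 3 or 4 or mutant 3 (edgeR adjusted p = 0.0858, 0.0503, 0.0602 and 0.0521) and without mutants 2 and 3 (-1.08, edgeR adjusted p = 0.0902), while the log2 fold change stayed between -1.39 and -1.01 with any 1 library left out. Unlike Prox1 and Neurog3 its values in mutants 2 and 3 were close to that in mutant 1, at 0.944 and 0.910 CPM against 0.969 CPM. Its relative Glis2 did not pass (log2 fold change -0.61, edgeR adjusted p = 0.227), and Glis1, with 5 counts in all mutants and 6 in all controls, was not tested. With a marker mean as a covariate Glis3 did not pass, at -1.19 ± 0.49 with the ductal mean, -0.96 ± 0.46 with the granule mean and -0.85 ± 1.29 with the acinar mean (log2, SE; edgeR adjusted p = 0.303, 0.249 and 0.977).

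Sox4 (chromosome 13, 28948919 to 28953699, minus strand), the SOXC factor that supports endocrine differentiation, had 23.6, 44.2, 33.7, 25.9 and 41.2 CPM in mutants 1 to 5, against 14.1, 13.0, 28.1 and 24.8 CPM in controls 1 to 4. Mutants 2, 3 and 5 were above every control, mutants 1 and 4 were level with controls 3 and 4, and controls 1 and 2 were lowest. The means were 33.7 ± 9.08 CPM in mutants (SD, n = 5) and 20.0 ± 7.59 CPM in controls (SD, n = 4). The log2 difference came to 0.75, and its 95% interval before adjustment ran from 0.11 to 1.39 (edgeR adjusted p = 0.0684), and it passed without control 3 or mutant 1 (edgeR adjusted p = 0.0448 and 0.0460). The ductal marker mean was also lower in controls 1 and 2 than in controls 3 and 4, at 5.58 and 5.65 log2 CPM in controls 1 and 2 and at 6.86 and 6.81 in controls 3 and 4. Relative to it, Sox4 was at -2.18 ± 0.34 in mutants (log2, SD, n = 5) and at -1.96 ± 0.18 in controls (log2, SD, n = 4). With a marker mean as a covariate Sox4 stood at 0.00 ± 0.31 with the ductal mean, 0.36 ± 0.35 with the granule mean and 0.75 ± 1.11 with the acinar mean (log2, SE; edgeR adjusted p = 0.995, 0.585 and 0.977). The antisense gene Gm26735 overlaps Sox4.

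**Figure D2:**
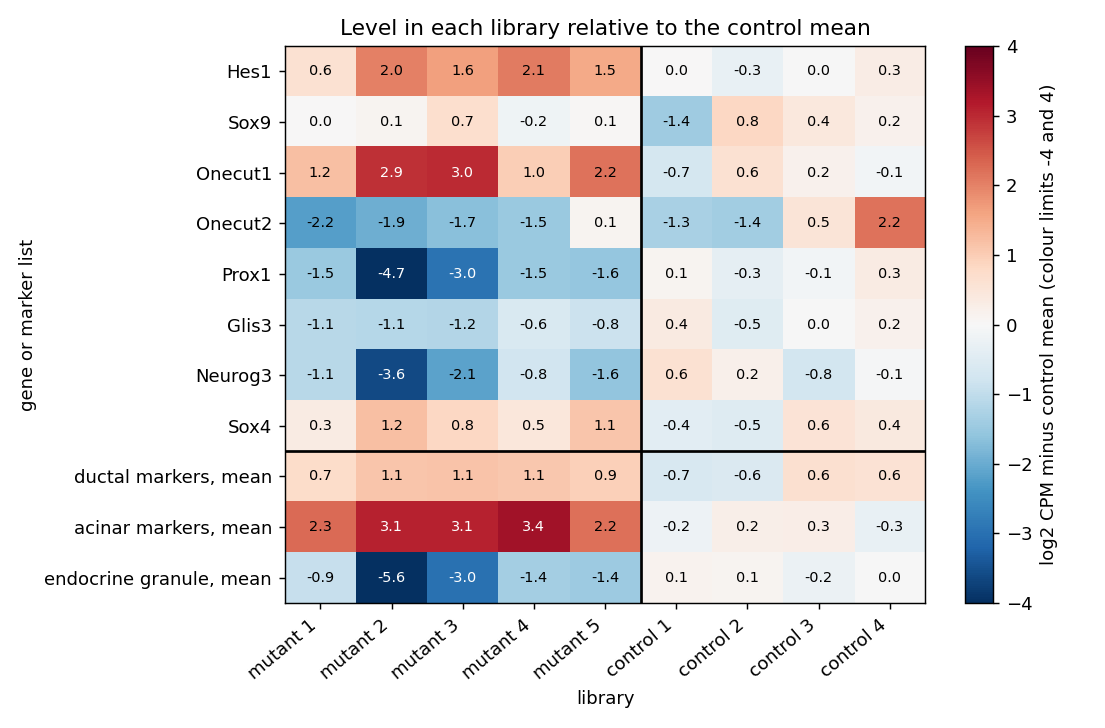
Log2 CPM of each gene, and the mean log2 CPM of 3 marker lists below the line, minus the control mean, for mutants left and controls right (numbers in cells; colours end at -4 and 4). Prox1 and Neurog3 are lowest in mutants 2 and 3, as is the granule mean, while Glis3 stays between -1.17 and -0.62 in the 5 mutants.

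Ratios between 2 of these genes within a library do not depend on how libraries are scaled. The pairs given here were chosen after their values were seen. Of the 28 pairs that these genes form, 14 did not overlap between mutants and controls, so a lack of overlap was common among them. The share for pairs of genes outside the group was not computed. The ratio of Hes1 to Prox1 was 5.03 ± 1.99 in mutants (log2, SD, n = 5) and 0.84 ± 0.08 in controls (log2, SD, n = 4). Hes1 over Neurog3, the pair of repressor and target, was at 6.96 ± 2.15 in mutants and 3.03 ± 0.69 in controls on the same scale, with no overlap. Onecut1 over Onecut2 was at 0.39 ± 1.35 in mutants and -3.65 ± 1.94 in controls. These groups did not overlap but came close, with the lowest mutant at -1.12 and the highest control at -1.30. Prox1 over Neurog3 overlapped, at 1.93 ± 0.40 in mutants and 2.18 ± 0.65 in controls. Sox9 over Hes1 overlapped too, from -0.93 to 0.70 in mutants and from -0.14 to 2.46 in controls.

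**Figure D3:**
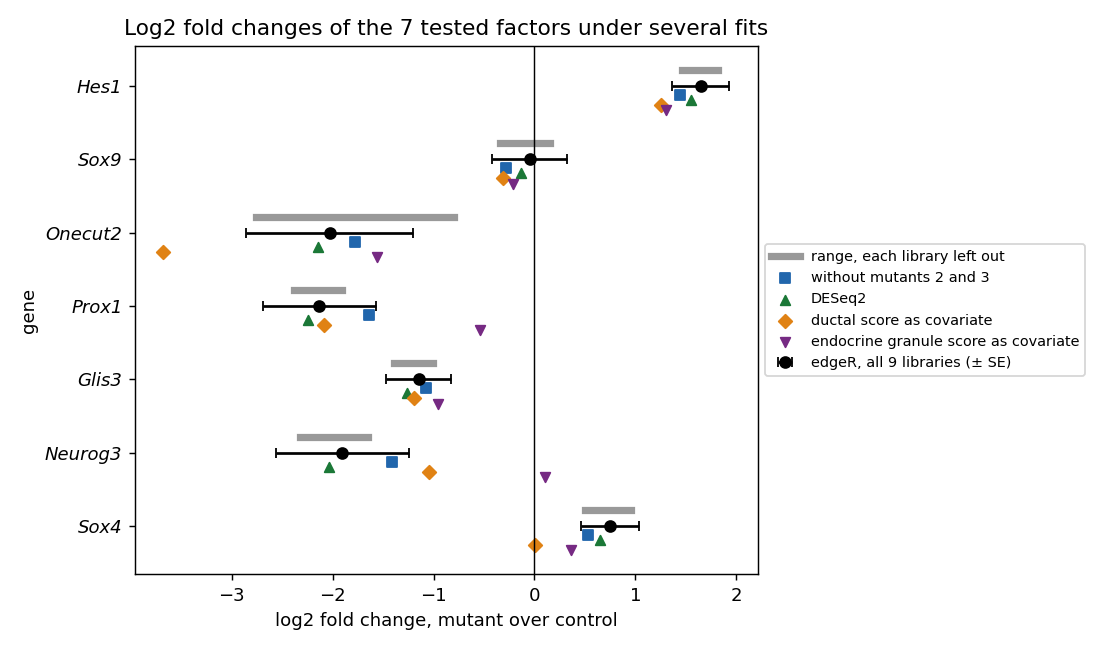
Log2 fold change of mutant over control for the 7 tested genes, with the estimate from all 9 libraries ± SE, the range with each library left out, and 4 other fits. Hes1 stays above 0 and Prox1 and Glis3 below 0 in all fits drawn, and Neurog3 is at -1.90 with all libraries, 0.11 with the granule mean as a covariate and -1.04 with the ductal mean. The fit with the acinar mean is not drawn, and it put Hes1 at 0.08 ± 0.95 and Prox1 at -0.17 ± 1.96 (log2, SE).

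Notch signalling passes from ligands to receptors, which are cleaved so that their inner part joins Rbpj on target genes such as Hes1. Of 30 tested pathway genes 4 rose and 5 fell, where 20.6% and 11.8% of all tested genes did. Their median log2 fold change was -0.08 (0.04 over all tested genes). Without mutants 2 and 3 the counts were 1 and 2. The receptor-cleaving proteases Adam17 and Adam10 rose by 0.78 and 1.12 on the log2 scale (edgeR adjusted p = 0.00577 and 0.0174). Dner, a neuronal Notch ligand, fell by 2.50 (edgeR adjusted p = 0.0156), with 44, 1, 6, 28 and 31 counts in mutants 1 to 5 and 124 to 140 in controls. Fbxw7, a ubiquitin ligase subunit that targets cleaved Notch, fell by 1.59 (edgeR adjusted p = 0.0164), and control 2 alone held 1753 of its 3644 control counts. The remaining called genes of this list, outside the naming rule, went both ways. Psen2 and Itch rose by 0.54 and 0.54 (edgeR adjusted p = 0.0212 and 0.0325). The receptor gene Notch1, Maml3 and Spen fell by 0.65, 0.88 and 0.75 (edgeR adjusted p = 0.0452, 0.0412 and 0.0474). Rbpj itself had 24.8 ± 4.56 CPM in mutants (SD, n = 5) and 23.5 ± 4.55 CPM in controls (SD, n = 4; edgeR adjusted p = 0.782).

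Among Hes, Hey and Id repressors 2 of 7 tested genes rose and 2 fell, with a median log2 fold change of 0.44 (3 and 2 without mutants 2 and 3). Heyl, another Notch target, rose beside Hes1, with 57, 98, 67, 63 and 67 counts in mutants 1 to 5 and 22, 13, 36 and 42 counts in controls 1 to 4. The log2 difference came to 1.47 ± 0.31 (SE; edgeR adjusted p = 0.00802), and its groups did not overlap in CPM. Hes6, which antagonises Hes1 and is a known Neurog3-dependent gene, fell by 0.62 (edgeR adjusted p = 0.00939), and Bhlhe40, a clock-linked repressor, fell by 1.03 (edgeR adjusted p = 0.0109). Hes5 had 0 counts in every library, and Hey1 had 31 counts in all mutants and 63 in all controls, too few to be tested. In the Sox family 1 of 7 tested genes rose, Sox6, by 1.85 (edgeR adjusted p = 0.0136), and the other 6 did not pass. Sox6 was not called without mutants 2 and 3. Sox8 had 0 counts, Sox10 1 count, and the SOXC relatives Sox11 and Sox12 had 27 and 31 counts in all mutants against 47 and 32 in all controls.

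Several transcription factors of the pancreatic progenitor rose. Of 21 tested genes 12 rose and 4 fell, with a median log2 fold change of 0.69, and without mutants 2 and 3 the counts were 8 and 3. Gata4 and Nr5a2, which later serve acinar cells, rose by 2.53 and 2.55, as did Ptf1a, the master factor of the acinar lineage, by 3.15, and the Hippo coactivator Yap1, by 2.05 (edgeR adjusted p = 0.00158, 0.00336, 0.00193 and 0.00252). Acinar markers rose in 23 of 24 tested genes in the same libraries, and their part in this was not tested.

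Some endocrine differentiation factors fell. Of 23 tested genes, among them Prox1, Glis3, Onecut2 and Sox4, 8 fell and the other 15 did not pass, with a median log2 fold change of -1.79. DESeq2 called 14 lower, and edgeR without mutants 2 and 3 called 12 lower. Rfx3, a factor of cilia and endocrine maturation, fell by 2.51 (edgeR adjusted p = 0.0114), and control 2 held 568 of its 974 control counts. Genes of the primary cilium and of cystic disease, only some of which are known to depend on Onecut1 or Glis3, were tested as neighbours of these factors. Of 25 tested genes 7 fell and 1 rose, where 11.8% and 20.6% of all tested genes did. Their median log2 fold change was -0.51 (DESeq2: 12 lower and 2 higher; edgeR without mutants 2 and 3: 4 lower and 1 higher). The intraflagellar transport gene Ift57 fell by 1.95 and the Bardet-Biedl genes Bbs4 and Bbs2 by 1.19 and 1.05 (edgeR adjusted p = 0.00293, 0.0102 and 0.0206), while the kinesin gene Kif3a rose by 0.81 (edgeR adjusted p = 0.00521).

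**Figure D4:**
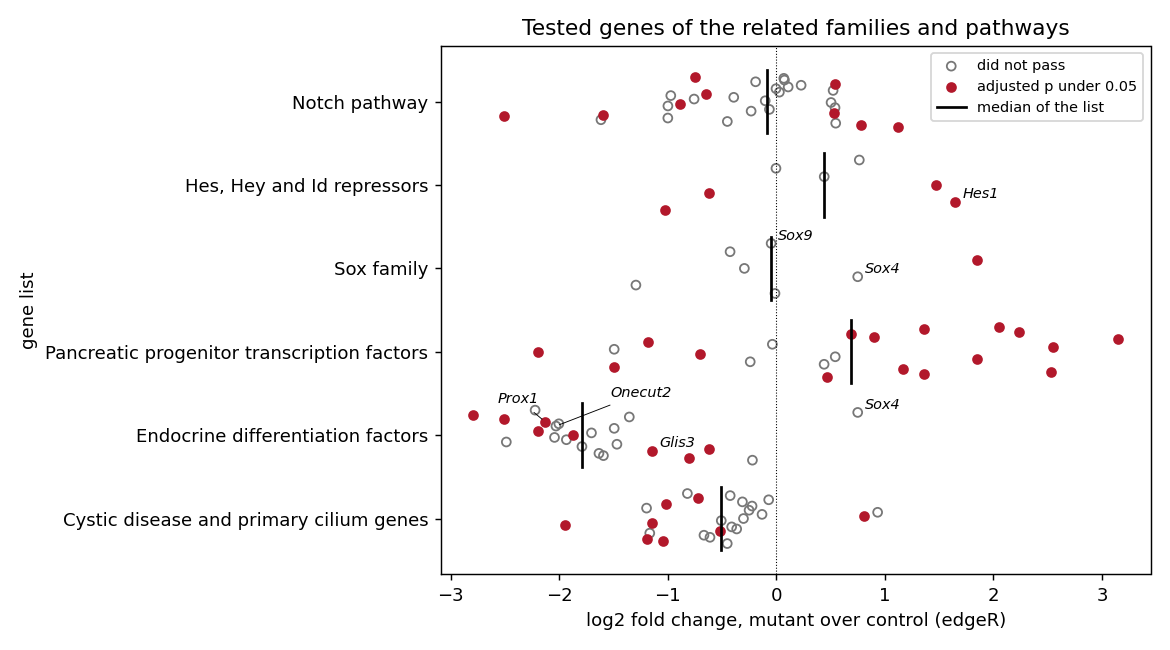
Log2 fold change of mutant over control for every tested gene of 6 lists, filled where the edgeR adjusted p was under 0.05, with the median of each list as a bar and genes of the 8 named. Progenitor factors include 12 genes that rose and 4 that fell, and endocrine factors 8 that fell and 15 that did not pass.

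Genes whose log2 CPM followed each factor most closely over the 9 libraries were ranked by Pearson correlation, as a description in which the difference between genotypes takes part. For Hes1 these were Tgfa, Angptl4 and Eftud1 (r = 0.99, 0.98 and 0.98). For Sox9 they were the Notch ligand gene Jag1, Zswim6 and Kdelc1 (r = 0.88, 0.87 and 0.87). Prox1 was followed by Ndrg4, 6330439K17Rik and the synaptotagmin gene Syt5 (r = 0.997, 0.993 and 0.992), and Neurog3 by Rai2, Amigo2 and Ache (r = 0.99, 0.99 and 0.98). Glis3 was followed by Dynlt1f, Pfkm and Ptpn6 (r = 0.97, 0.97 and 0.96), Onecut2 by Sema6a, Nuak2 and Ugt1a7c (r = 0.93, 0.92 and 0.92), and Sox4 by Cdca7, Fkbpl and Micall2 (r = 0.98, 0.97 and 0.97). Jag1 itself had 15.8 ± 3.14 CPM in mutants (SD, n = 5) and 18.5 ± 14.1 CPM in controls (SD, n = 4; edgeR adjusted p = 0.700).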

How the data were processed

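Counts per gene were deposited by the authors as whole numbers without normalization, for 9 libraries of islet RNA. The labels' protocols name DirectZol MicroPrep columns for RNA and a NEBNext kit for small inputs. The submitters' processing notes name STAR, RSEM, Bowtie2, HOMER, DESeq2, R 4.1.0 and mm10 among others, without roles. The aligner, counter, annotation and strand setting of this table are not given in the sources used here. All rows named a gene.

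Mutant was compared with control across all genes by edgeR 4.0.16 (R 4.3.3) with glmQLFit and glmQLFTest after filterByExpr and TMM scaling, two-sided, adjusted by Benjamini-Hochberg and called at 0.05. The standard error was the log2 fold change over the square root of F. TMM factors scaled the library sizes behind CPM, and 2 was the prior count on the log2 scale. Ratios added 0.5 to each count. No pair of libraries agreed within counting noise. The pipeline was tested on simulated counts that held no joint shift of acinar or endocrine genes, so that test does not bear on such a shift. DESeq2 1.42.0 and the other alternatives are in the closing section. Coordinates and promoters are RefSeq's on GRCm38.p6.

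The members, lists, named-gene rule (all 8 genes, near paralogs, Rbpj, up to 4 called genes of lowest p per list, and 3 nearest patterns per tested gene) and alternatives were chosen with earlier results of these data known. Replicate numbers did not pair libraries: deviations of same-numbered libraries correlated at -0.05 to 0.18, over 0.1 in 1 of 4 pairs.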

Additional observations from a re-analysis of the deposited data

Results flagged for a closer look

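In 2 of 16 groups of values (8 genes in each genotype) the library at one end lay apart from the rest by more than a Dixon gap test at 95% allows, where chance flags about 5% of groups. Sox9 was at 96.2 CPM in mutant 3, against 53.8 to 64.6 CPM in the other mutants. Without mutant 3 the gene stood at -0.25 on the log2 scale (edgeR adjusted p = 0.645). Onecut2 was at 5.89 CPM in mutant 5, against 0.969 to 1.76 CPM in the other mutants, and without mutant 5 it passed (log2 fold change -2.76, edgeR adjusted p = 0.0403).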

How the results depend on the processing

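With all 9 libraries 1 of the 8 genes was called higher (Hes1) and 2 lower (Prox1 and Glis3), in 2560 and 1462 calls over all genes. Leaving out 1 library gave 1 to 3 higher and 1 to 3 lower, in 1579 to 2702 and 699 to 1865 calls. Without mutants 2 and 3, 1 of the 8 was higher and 1 lower, in 1355 and 1229 calls over 12571 tested genes. Without a low-count filter 2 of the 8 were higher, Onecut1 being added, as in DESeq2, which called 4 lower in 2582 calls. The same 2 were higher with a filter of 4 libraries at a CPM of 1 or more (12750 genes tested). Onecut1 was under 1 CPM in every control, so it met that filter through mutant libraries alone. Its call there therefore adds no support. It was also tested and called in the fits without 1 control, again through mutant libraries alone. RLE scaling shifted the median of all genes by -0.10 and the share of calls that were higher from 63.6% to 51.8% (DESeq2: 49.6%). Hes1, Prox1 and Glis3 kept their sign in every fit run, but with the acinar mean as a covariate Hes1 (0.08 ± 0.95) and Prox1 (-0.17 ± 1.96) were near 0 with wide errors (log2, SE). The uncalled Sox9, Onecut2 and Neurog3 changed sign in some fits. Onecut2 stood at 2.48 ± 2.90 with the acinar mean, with a wide error (log2, SE; edgeR adjusted p = 0.972). It was at -3.68 ± 0.84 with the ductal mean and -1.56 ± 1.18 with the granule mean (edgeR adjusted p = 0.141 and 0.474). RLE scaling called 10 of the cilium genes lower.

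With the replicate number as a block, 1658 genes were higher and 774 lower, and of the 8, 1 was higher and 1 lower. Glis3 was lost there (-1.17, edgeR adjusted p = 0.0944). No control correlated best with its own number (0 of 4).

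With a marker mean as a covariate edgeR called 0 of the 8 in either direction: over all genes it called 1 higher and 8 lower with the ductal mean, 0 and 0 with the acinar mean, and 573 and 79 with the granule mean. Of the 8, 4, 0 and 1 were at an unadjusted p under 0.05 in those fits, and over all genes 1905, 414 and 2848 were. Genotype explained 58.3%, 92.8% and 47.4% of the variance of these means, so the covariates and genotype are partly the same contrast. Glis3, Neurog3 and Onecut1 rest on few counts, which limits the precision of their sizes.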
